A study of Rattus norvegicus with 9 samples.

Results

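Cell cycle and proliferation genes were followed in the dorsal root ganglion (DRG) of rats after spared nerve injury (SNI) and after SNI with the GPER antagonist G15. The members were 43 of the 20194 genes in the table, found by symbol from a list of S phase and mitosis genes. All 43 were present, 11 of them S phase genes and 32 mitosis genes. RNA-Seq had been run on 3 sham, 3 SNI and 3 SNI + G15 libraries from L4 to L6 ganglia of male Sprague Dawley rats aged 8 to 10 weeks. In SNI, 2 of the 3 branches of the sciatic nerve are cut, and the DRG holds the cell bodies of the injured sensory neurons together with satellite glia, Schwann cells, macrophages and vessels. G15 (1.8 μg/μl, 1 μl) was given intrathecally on day 5 after SNI. The protocol in the labels, the same for all 9 libraries, has catheters placed on day 5 and drug given through them for 24 h. The labels call the sham and SNI libraries controls for G15 without naming what those rats received, and give 2% DMSO as the solvent where the methods give 1%. For sequencing, 3 rats of each group were taken by the methods and 6 by a supplement, and whether ganglia of several rats were pooled in a library is not given in the sources used here. P-values therefore measure the spread between 3 libraries per group.

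A dividing cell first licenses its replication origins with the MCM helicase, then copies its DNA in S phase with the sliding clamp and a supply of deoxynucleotides. It enters mitosis through cyclin B and CDK1, lines up its chromosomes under the spindle checkpoint, and separates them once CDC20 turns on the anaphase promoting complex. Sensory neurons of the adult ganglion are postmitotic, whereas its glia, macrophages, fibroblasts and endothelial cells can divide. Transcripts of many of these genes rise and fall with the phase of the cycle, so their RNA in whole tissue is a common readout of cycling cells.

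The markers of the labelled tissue were high in all 9 libraries. The neuronal tubulin Tubb3 lay between 2215 and 3146 FPKM (fragments scaled to transcript length and library size), and Sox10, a transcription factor of peripheral glia, lay between 62.86 and 81.83 FPKM. Depth was even, at 18484557 to 18756736 estimated counts per library. Replicate 3 of SNI + G15 stood apart from its group, with a chi-square per degree of freedom of 8.5 and 8.24 against its partners, which stood at 3.08 from each other. A whole ganglion was measured, so more dividing cells and more RNA per dividing cell cannot be told apart.

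Promoters of the S phase and mitosis members were told apart by sequence. The cell cycle genes homology region (CHR), bound by the MuvB complex that switches mitosis genes off and on, was searched as TTTGAA or TTCGAA. The CCAAT box, bound by NF-Y, was searched as CCAAT. The E2F site of S phase genes was searched as TTTCCCGC, TTTGGCGC, TTTCGCGC or TTTGCCGC. TATAAA served as a comparison. All were searched on both strands of RefSeq promoters of GRCr8, from 250 bases before to 50 bases after the gene start. The table held a promoter for 33 of the 43 members. The 6 stretches that follow, each the 100 bases before the gene start, show both kinds of promoter and the members whose values are compared most, with motifs in capitals.
Top2a (GRCr8, chr10:84473094-84473193, minus strand; CHR and CCAAT): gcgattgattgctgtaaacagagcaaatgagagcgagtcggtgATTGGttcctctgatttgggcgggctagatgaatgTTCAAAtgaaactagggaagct
Cdk1 (GRCr8, chr20:19265193-19265292, plus strand; CHR and CCAAT): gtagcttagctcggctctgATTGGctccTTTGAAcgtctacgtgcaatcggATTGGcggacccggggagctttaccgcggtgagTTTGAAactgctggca
Prc1 (GRCr8, chr1:143659381-143659480, plus strand; CHR and CCAAT): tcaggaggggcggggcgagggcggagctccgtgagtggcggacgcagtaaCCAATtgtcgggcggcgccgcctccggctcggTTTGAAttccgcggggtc
Mcm5 (GRCr8, chr19:13488713-13488812, plus strand; CCAAT and E2F): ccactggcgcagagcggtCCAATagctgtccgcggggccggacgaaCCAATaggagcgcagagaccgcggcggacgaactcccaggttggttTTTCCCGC
Mcm2 (GRCr8, chr4:122918095-122918194, minus strand; E2F): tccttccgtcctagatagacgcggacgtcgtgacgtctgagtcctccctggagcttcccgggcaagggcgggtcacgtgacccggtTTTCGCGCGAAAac
Aurka (GRCr8, chr3:181560770-181560869, minus strand; none of the motifs): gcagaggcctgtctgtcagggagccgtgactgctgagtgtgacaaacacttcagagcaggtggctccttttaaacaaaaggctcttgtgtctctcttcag

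Top2a, Cdk1 and Prc1 each paired a CHR within 50 bases of the start with a CCAAT box farther upstream. In Mcm2 the 2 E2F matches are 1 site read on both strands, since they overlap. Mcm2 also holds CHR matches at -215 and -175, upstream of the printed stretch, and counts as an S phase promoter with a CHR. A CHR was held by 18 of 26 mitosis promoters (69.2%), by 2 of 7 S phase promoters (28.6%) and by 19.5% of all 27457 RefSeq promoters. In 15 mitosis members a CHR began within 50 bases of the gene start. The E2F site went the other way, with 6 of 7 S phase promoters (85.7%), 1 of 26 mitosis promoters (3.85%, Cdk1) and 2.25% of all promoters. CCAAT was held by 71.4% of S phase and 69.2% of mitosis promoters, against 37.7% of all. CHR and CCAAT together were held by 14 of 26 mitosis promoters (53.8%) and by 7.83% of all. TATAAA was held by 1 mitosis promoter (Nusap1, 3.85%) and 14.3% of all promoters.

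**Figure D1:**
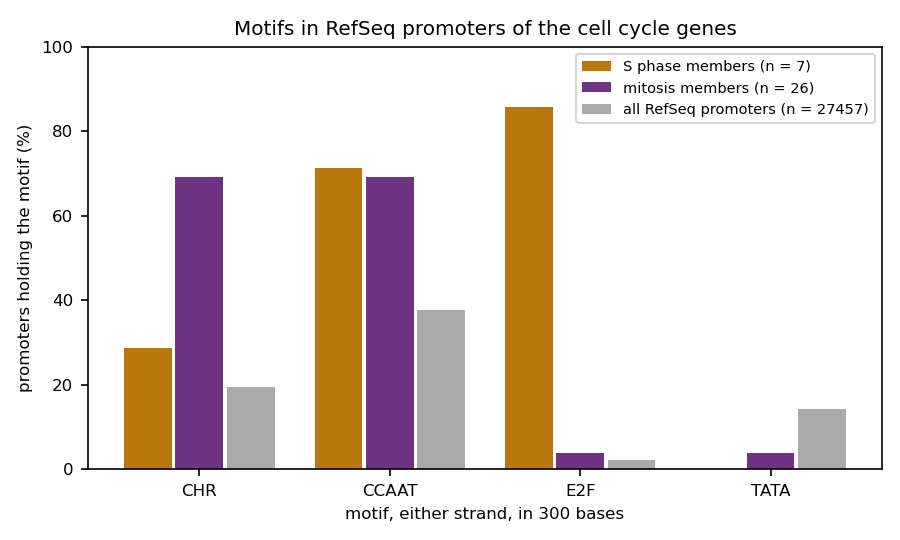
Share of promoters (%, 300 bases, either strand) holding each motif, for 7 S phase members, 26 mitosis members and all 27457 RefSeq promoters. The E2F bar is tall for the S phase members (85.7%) and the CHR bar for the mitosis members (69.2%), while TATA is below the 14.3% of all promoters in both.

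Expression was low for most members in sham ganglia. Only 20 of 43 had a mean of at least 1 FPKM in sham, against 29 in SNI and 31 in SNI + G15. The highest members over the 9 libraries were Pcna (mean 22.7 FPKM), the sliding clamp that also serves DNA repair, and Aurka (mean 11.1 FPKM), a spindle pole kinase. Cenpf, a kinetochore protein, had the lowest FPKM in sham (mean 0.057), and Bub1b had the fewest estimated counts there, 3 to 7 per library. The filter in the methods, an FPKM of at least 1 in 1 sample, would have kept 33 members, 10 of which pass it only through libraries outside the sham group. All genes with at least 1 count were therefore tested, 20107 in all.

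To see what the injury did, SNI was compared with sham. After SNI, 23 of the 43 members were higher than in sham and 2 were lower at an adjusted p below 0.05, where 17.1% of all genes tested were called higher and 16.4% lower. The median log2 fold change of the members was 0.55, against 0 for all genes, and 38 of 43 were above 0. The 3 SNI values all lay above the 3 sham values for 28 members and below for 3, where 25.4% and 17.8% of all genes did so. DESeq2 called 19 higher and 1 lower, without Pcna, Melk, Nuf2, Ttk and Mcm7. Of the 11 S phase members 6 were higher and 1 was lower (median log2 fold change 0.33). Of the 32 mitosis members 17 were higher and 1 was lower (median 0.60). The fold changes and adjusted p-values that follow come from the quasi-likelihood test of edgeR, adjusted over all genes tested by the Benjamini-Hochberg method, and the ± after a log2 fold change is its standard error (n = 3 per group).

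Among the 6 MCM helicase subunits, 4 were higher and 1 lower after SNI. Mcm5 stood at 0.99, 1.18 and 0.85 FPKM in sham and at 3.63, 3.84 and 3.41 FPKM in SNI, far apart, a log2 fold change of 1.87 ± 0.13 (adjusted p = 8.93e-07). Mcm6 stood at 0.9, 0.93 and 0.86 FPKM in sham and at 1.8, 1.7 and 1.92 in SNI, with no overlap (0.97 ± 0.13, adjusted p = 0.00016). Mcm3 rose by 0.82 ± 0.14 on the log2 scale (adjusted p = 0.000776) and Mcm4 by 0.35 ± 0.06 (adjusted p = 0.000767). Although the 6 subunits form 1 ring, their changes were unequal. Mcm2 had 2.50, 2.80 and 3.06 FPKM in sham and 3.72, 2.72 and 3.22 in SNI, values that overlap (0.17 ± 0.12, adjusted p = 0.33). Mcm7 was lower, with 6.01 to 6.18 FPKM in sham and 4.86 to 5.66 in SNI, a log2 fold change of -0.22 whose adjusted p of 0.0464 lies close to the threshold. The Mcm7 call was lost with DESeq2, with limma and when any 1 of the 6 libraries was left out. The deposited split of Mcm7 between its 3 transcripts differed from replicate to replicate, NM_001004203.3 being listed at 0, 0 and 4.94 FPKM in the 3 sham libraries.

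Nucleotide supply and the replication fork gave smaller changes. Rrm2, the S phase subunit of ribonucleotide reductase, stood at 1.94, 1.92 and 1.72 FPKM in sham and at 2.99, 3.53 and 3.25 in SNI (log2 fold change 0.77 ± 0.11, adjusted p = 0.000204). Pcna stood at 18.11, 19.82 and 20.28 FPKM in sham and at 21.86, 24.01 and 22.30 in SNI. The Pcna groups did not overlap, but the change was small (0.19 ± 0.06, adjusted p = 0.0422). It was not called with DESeq2 (adjusted p = 0.15), with all 9 libraries in one fit, or in 5 of the 6 fits that left out 1 library. Tyms, thymidylate synthase, did not pass the test (1.66 to 2.22 FPKM in sham, 2.14 to 2.97 in SNI). Neither did the regulators of S phase entry. E2f1, the factor that binds the E2F site, had 6.59 to 7.33 FPKM in sham and 6.36 to 6.99 in SNI, and Ccne2, a cyclin E, had 1.22 to 1.65 and 1.48 to 1.89 FPKM.

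Of the 8 cyclins, mitotic kinases and their regulators, 3 were higher after SNI. Cdk1, the kinase that drives entry into mitosis, stood at 0.78, 0.96 and 1.05 FPKM in sham and at 2.43, 2.20 and 1.52 in SNI (1.09 ± 0.24, adjusted p = 0.00444). All SNI values lay above sham, with a wider spread in SNI than in sham. Ccna2 (cyclin A) and Melk, a kinase of dividing progenitors, were also called. The cyclin B genes were not, since Ccnb1 went from 1.14, 1.30 and 1.07 FPKM to 1.37, 1.46 and 1.53 (0.29 ± 0.13, adjusted p = 0.13) and Ccnb2 from 0.41 to 0.72 FPKM to 0.41 to 0.78 FPKM. The Ccnb1 groups were apart, although the difference did not pass the test. Plk1, a kinase of mitotic entry, and Foxm1, a transcription factor of mitosis genes, did not pass it either. Aurka had 11.69, 9.83 and 11.75 FPKM in sham and 10.16, 11.61 and 11.25 in SNI, with a 95% interval of the log2 fold change from -0.23 to 0.13.

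The checkpoint and kinetochore group held the widest range, with 4 of 10 members higher and the rest not called. Bub1b, the checkpoint kinase BUBR1, stood at 0.08, 0.04 and 0.09 FPKM in sham and at 0.29, 0.32 and 0.34 in SNI, a 4.55-fold change (2.19 ± 0.34 on the log2 scale, adjusted p = 0.000442). These are low levels, with 23 to 27 estimated counts per SNI library. Cenpf rose from 0.05 to 0.06 FPKM to 0.18 to 0.23 FPKM (1.79 ± 0.24, adjusted p = 0.000144). Ttk (the checkpoint kinase MPS1) and Nuf2 (an arm of the NDC80 complex) were also called. Ndc80 itself, Aurkb, Bub1, Mad2l1 and Cenpe were not. Birc5 (survivin) had 2.50 to 2.69 FPKM in sham and 2.00 to 2.32 in SNI, below sham in all 3 libraries, with a log2 fold change of -0.32 that did not pass the test (adjusted p = 0.21).

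Both partners of the anaphase promoting complex were higher. Ube2c, its ubiquitin-conjugating enzyme, stood at 1.68, 2.10 and 1.09 FPKM in sham and at 3.56, 3.77 and 4.16 in SNI (1.20 ± 0.23, adjusted p = 0.00217). Cdc20, its activator, had 0.70 to 1.36 FPKM in sham and 2.04 to 2.59 in SNI. Both genes were thus apart between the groups in every library.

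Of the 10 motor, spindle and cytokinesis genes, 6 were higher and 1 lower. Prc1, which bundles the microtubules of the central spindle, stood at 0.89, 0.92 and 0.73 FPKM in sham and at 2.10, 2.92 and 2.44 in SNI (1.61 ± 0.15, adjusted p = 1.05e-05). Nusap1, Kif2c, Kif11, Tpx2 and Kif20a were called as well, while Kif23, Kif4a and Hmmr were not. The Kif2c call rested on few counts, from 3 to 19 per sham library, and its values overlapped (0.06 to 0.39 FPKM in sham, 0.35 to 0.73 in SNI). Racgap1, a GTPase-activating protein of the central spindle, ran the other way. Its values fell from 6.82, 5.88 and 6.84 FPKM to 4.86, 4.65 and 3.29 FPKM (-0.65 ± 0.13, adjusted p = 0.0028), with no overlap. It is the partner of Kif23 in the centralspindlin complex, and Kif23 had 0.24 to 0.39 FPKM in sham and 0.45 to 0.50 in SNI (not called).

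The proliferation markers of the chromosomes both rose. Top2a, the topoisomerase that untangles sister chromatids, stood at 0.31, 0.29 and 0.35 FPKM in sham and at 1.15, 1.1 and 1.0 in SNI (1.73 ± 0.15, a 3.31-fold change, adjusted p = 5.28e-06). Mki67, the source of the Ki-67 antigen, stood at 0.57, 0.44 and 0.41 FPKM in sham and at 1.15, 0.99 and 1.23 in SNI (1.20 ± 0.13, 2.30-fold, adjusted p = 2.83e-05). In both genes every SNI value exceeded every sham value.

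**Figure D2:**
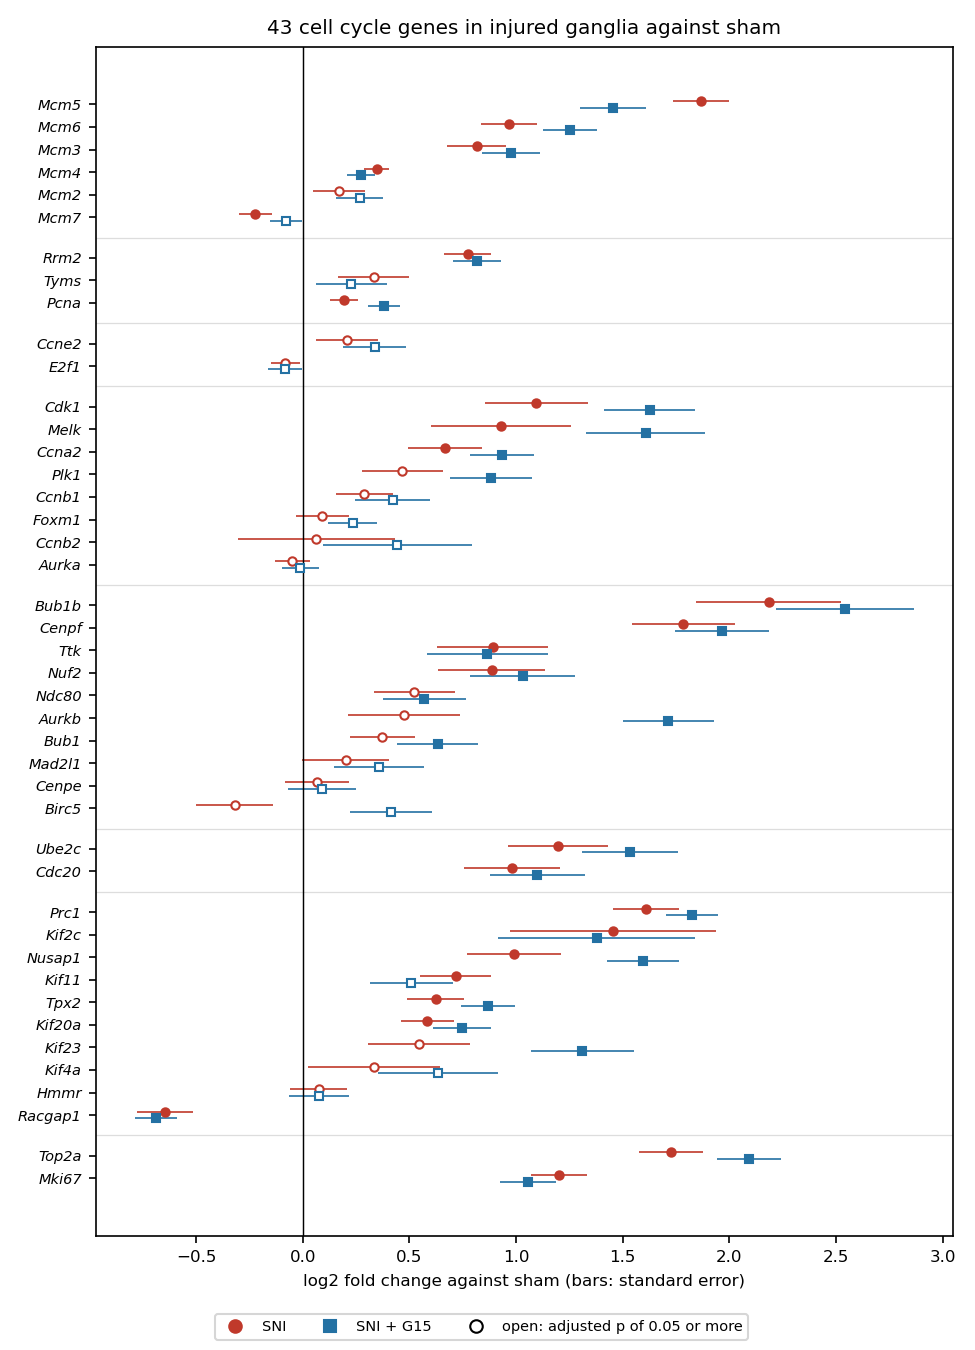
Log2 fold change of each of the 43 members against sham, for SNI (circles) and SNI + G15 (squares), with standard errors and filled symbols for an adjusted p below 0.05. Rows are grouped by role from the MCM helicase to Top2a and Mki67, and most points lie right of 0, with Bub1b highest (2.19 and 2.54) and Racgap1 lowest (-0.65 and -0.69).

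**Figure D3:**
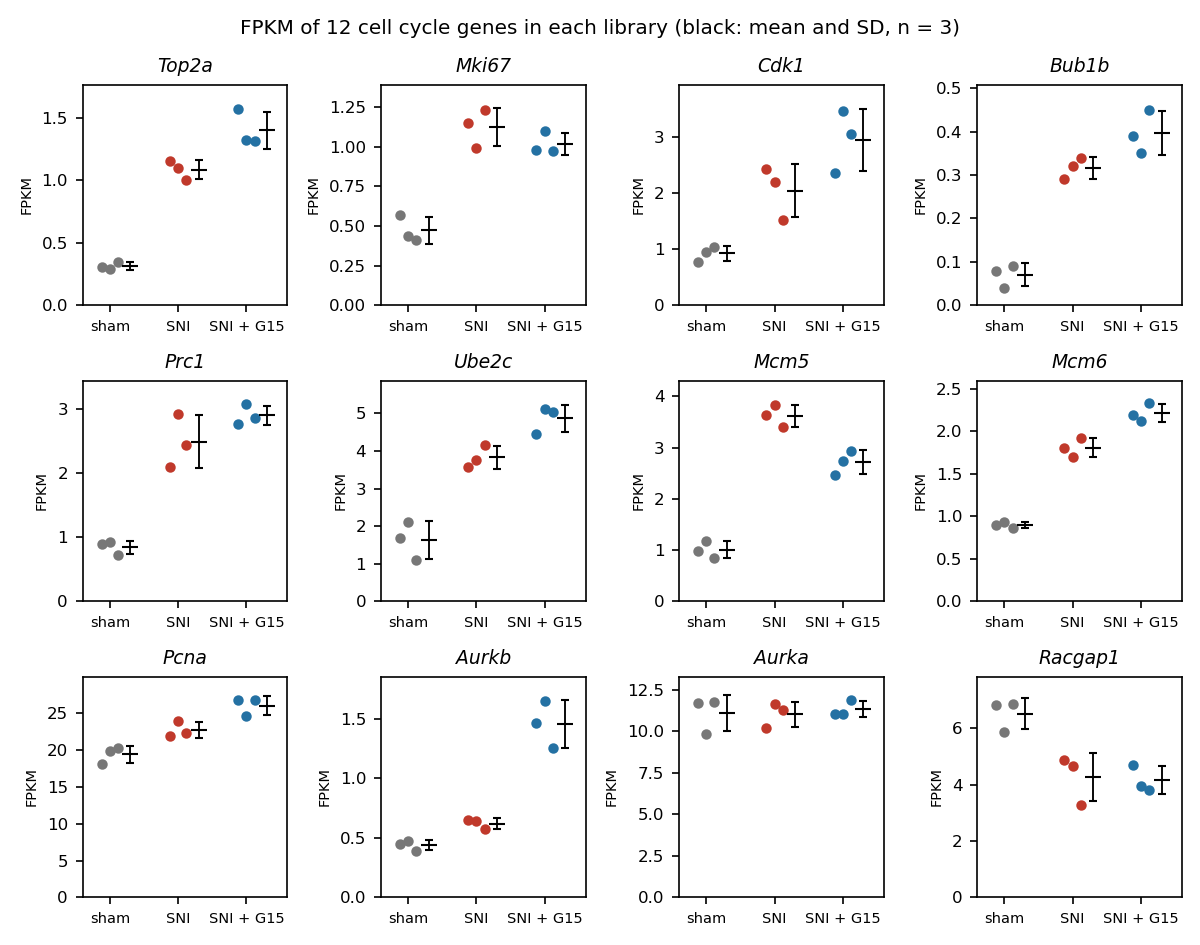
FPKM of 12 members in each library, with the mean and SD of 3 libraries per group beside the points. Top2a, Mki67, Cdk1, Bub1b, Prc1, Ube2c, Mcm5 and Mcm6 are low in the 3 sham libraries and higher in the 6 injured ones, Aurka is level near 11 FPKM, and Aurkb is high only in SNI + G15.

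Members were also set apart by level, as a description without a test. The 5 members with a mean of at least 5 FPKM (Pcna, Aurka, E2f1, Mcm4 and Mcm7) had a median log2 fold change of -0.05 after SNI, with 2 called higher and 1 lower. The other 38 had a median of 0.65, with 21 called higher and 1 lower, where 17.1% and 16.4% of all genes were called. Racgap1, the member with the lowest change, lay just under this limit at a mean of 4.98 FPKM, and Mcm4 just over it at 5.78. Summed FPKM of the S phase members was 46.8 to 49.4 in sham and 57.02 to 60.93 in SNI, a ratio of means of 1.23, and that of the mitosis members was 40.7 to 42.9 and 52.3 to 54.4, a ratio of 1.29. By promoter, 10 of 18 mitosis members with a CHR and 4 of 8 without were higher after SNI, against 17.1% of all genes. No share was taken for other genes of like level.

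To see what G15 added to the injury, SNI + G15 was compared with SNI. At an adjusted p below 0.05, 3 members were higher (Aurkb, Kif23 and Birc5) and 1 was lower (Mcm5), while 5.02% and 4.42% of all genes tested were called in these directions. The other 39 were not called, though 35 of 43 lay above 0. The median log2 fold change was 0.12 for S phase and 0.22 for mitosis members, against 0.01 for all genes. All 3 SNI + G15 values lay above the 3 SNI values for 14 members and below them for 1, against 13.7% and 16.6% of all genes.

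Aurkb, the kinase of the chromosome passenger complex, showed the change with the smallest p. It stood at 0.45, 0.47 and 0.39 FPKM in sham, at 0.65, 0.64 and 0.57 in SNI and at 1.46, 1.65 and 1.25 in SNI + G15. The SNI + G15 values were thus apart from both other groups, from 42 to 52 estimated counts per library against 19 to 21 in SNI. The change from SNI was 2.4-fold (1.26 ± 0.19 on the log2 scale, adjusted p = 0.00357), and it stayed called under all 14 alternatives run, with adjusted p-values from 0.00132 to 0.0285. The fit with the FPKM filter among them adds no support, since Aurkb passes that filter only through its SNI + G15 libraries.

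Birc5, another subunit of this complex, stood at 2.32, 2.00 and 2.01 FPKM in SNI and at 3.14, 3.02 and 4.41 in SNI + G15 (0.75 ± 0.20, adjusted p = 0.0476). The highest value came from replicate 3, the library that stood apart. Without it the log2 fold change was 0.55 (adjusted p = 0.12). The call was also lost when any other library was left out, with adjusted p-values from 0.069 to 0.17. The other subunits of the complex, which are not members, were not called: Incenp changed by 0.06 ± 0.06 (adjusted p = 0.61) and Cdca8 by 0.42 ± 0.13 (adjusted p = 0.073).

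Kif23, the kinesin of centralspindlin, stood at 0.50, 0.48 and 0.45 FPKM in SNI and at 0.82, 0.66 and 0.97 in SNI + G15 (0.79 ± 0.20, adjusted p = 0.0392). Mcm5 fell from 3.63, 3.84 and 3.41 FPKM to 2.47, 2.74 and 2.94 (-0.39 ± 0.09, adjusted p = 0.0299), still above every sham value. Neither pair of groups overlapped. The calls of Birc5, Kif23 and Mcm5 were lost with DESeq2 (adjusted p = 0.11, 0.11 and 0.091) and with limma, so only Aurkb stayed called in these fits.

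The common proliferation markers gave no call. Top2a was 1.57, 1.32 and 1.31 FPKM in SNI + G15, above all SNI values, at a log2 fold change of 0.39 ± 0.11 (adjusted p = 0.0609, 95% interval 0.14 to 0.64). Mki67 was 0.98, 1.1 and 0.97 FPKM and overlapped with SNI (-0.12 ± 0.10, adjusted p = 0.47, interval -0.34 to 0.09). Cdk1 was 2.36, 3.46 and 3.05 FPKM, also overlapping (0.55 ± 0.21, adjusted p = 0.14, interval 0.07 to 1.04). These intervals leave room for changes in either direction for Mki67, and for up to about 2-fold for Cdk1. Pcna (26.73, 24.57 and 26.80 FPKM, 0.21 ± 0.06, adjusted p = 0.0695), Mcm2 (3.33, 3.82 and 3.19 FPKM, 0.12 ± 0.12, adjusted p = 0.57) and Ccnb1 (1.94, 1.24 and 1.63 FPKM, 0.16 ± 0.16, adjusted p = 0.58) were not called.

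**Figure D4:**
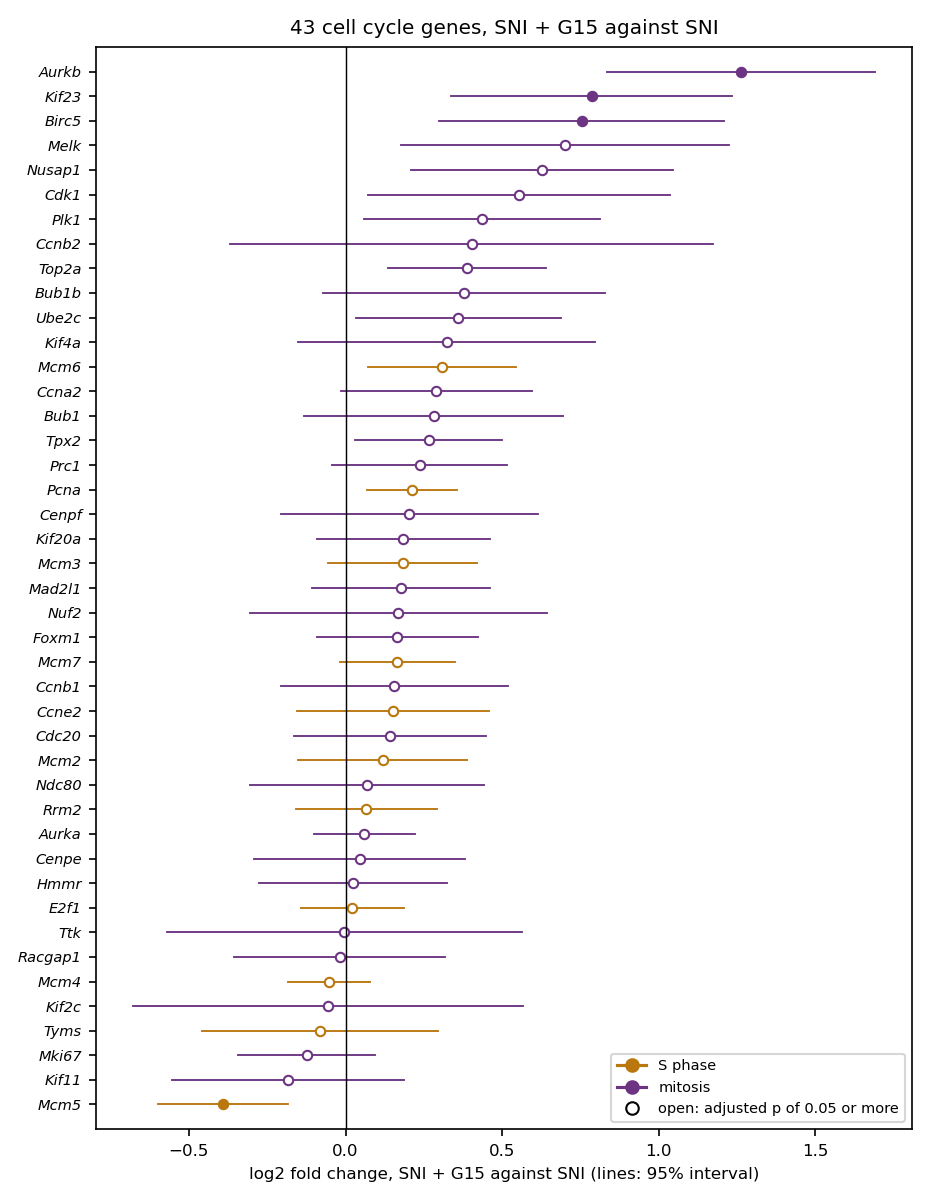
Log2 fold change of each member in SNI + G15 against SNI with its 95% interval, S phase and mitosis members in different colours, ordered by size, filled where the adjusted p is below 0.05. Aurkb (1.26), Kif23 (0.79) and Birc5 (0.75) are the filled points at the top and Mcm5 (-0.39) is the filled point at the bottom, with most other intervals crossing 0.

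Against sham, SNI + G15 had 27 members higher and 1 lower, where 15.9% and 16.0% of all genes were called. This comparison shares its sham libraries with the first and its SNI + G15 libraries with the second. The median log2 fold change was 0.34 for S phase members (0.33 in SNI) and 0.87 for mitosis members (0.60 in SNI). All 3 values lay above sham for 31 members and below for 1, where 24.6% and 18.2% of all genes did so. Without replicate 3 of SNI + G15, 23 members were higher.

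The members with the smallest p against sham were Prc1, Top2a, Mcm6, Nusap1 and Mcm5. Prc1 was 2.77, 3.07 and 2.85 FPKM in SNI + G15 (1.82 ± 0.12 on the log2 scale, adjusted p = 2.77e-06) and Top2a rose by 2.09 ± 0.15 (adjusted p = 4.41e-06). Nusap1, which binds spindle microtubules, went from 0.60 to 0.64 FPKM in sham to 1.82 to 2.04 (1.60 ± 0.17, adjusted p = 5.99e-05). Mcm6 reached 1.25 ± 0.13 (adjusted p = 4.1e-05) and Mcm5 1.45 ± 0.15 (adjusted p = 5.99e-05), the latter below its value in SNI. All these genes had no overlap with sham.

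Cenpf (1.97 ± 0.22, adjusted p = 9.43e-05), Bub1b (2.54 ± 0.32, adjusted p = 0.000201) and Aurkb (1.71 ± 0.21, adjusted p = 0.000174) were called in the checkpoint group. Cdk1 changed by 1.63 ± 0.21 (adjusted p = 0.000264), Mki67 by 1.06 ± 0.13 (adjusted p = 0.000184) and Rrm2 by 0.82 ± 0.11 (adjusted p = 0.000338). Pcna was called too (0.38 ± 0.07, adjusted p = 0.00291). Racgap1 was again lower, at 4.71, 3.95 and 3.80 FPKM (-0.69 ± 0.10, adjusted p = 0.000401). Ccnb1 (0.42 ± 0.17, adjusted p = 0.0959) and Mcm2 (0.27 ± 0.11, adjusted p = 0.0936) were not called.

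In both comparisons with sham 22 members were higher. Kif11 was called higher in SNI alone, and Plk1, Aurkb, Bub1, Ndc80 and Kif23 in SNI + G15 alone, although of these 6 only Aurkb and Kif23 also differed between the injured groups by the test of that difference. The calls of Bub1 and Ndc80 in SNI + G15 were lost with DESeq2. Called in neither were 13 members, namely Mcm2, Tyms, E2f1 and Ccne2 of S phase and Ccnb1, Ccnb2, Aurka, Foxm1, Birc5, Mad2l1, Cenpe, Kif4a and Hmmr of mitosis. The remaining pair is Racgap1, lower in both, and Mcm7, lower in SNI alone. The set without a call includes the most abundant mitosis member (Aurka) and the S phase transcription factor E2f1.

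Other genes of the cycle were read from lists of further members of the same pathways. Of 35 further replication genes, 8 were called higher after SNI (22.9%, where 17.1% of all genes were) and 2 with G15 against SNI (5.71%, where 5.02% of all genes were). Both shares are near those of all genes. In SNI + G15 against sham 10 were higher (28.6%, against 15.9% of all genes) and 2 lower. Mcm10, which starts the MCM helicase, changed by 1.5 ± 0.33 (adjusted p = 0.00412) from 0.07 to 0.1 FPKM in sham, and Rrm1, the partner of Rrm2, by 0.35 ± 0.07 (adjusted p = 0.00309). Prim1, the primase subunit (0.37 ± 0.06, adjusted p = 0.0041), and Tk1, thymidine kinase (0.43 ± 0.11, adjusted p = 0.0411), were the 2 that rose with G15. Fen1, the flap nuclease, and Ccne1, a cyclin E, were the 2 that were lower in SNI + G15 than in sham (-0.36 and -0.37, adjusted p = 0.00742 and 0.024).

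Of 57 further mitosis genes, 12 were higher after SNI (21.1%, against 17.1% of all genes) and 1 was lower. With G15 against SNI 1 was higher (1.75%, against 5.02% of all genes), and in SNI + G15 against sham 22 were higher (38.6%, against 15.9%) and 2 lower. The shares after SNI and with G15 are thus near or below those of all genes. Kif22, a chromosome-arm kinesin, was the gene called in all 3. It rose from 2.03, 2.35 and 2.28 FPKM in sham to 5.86, 5.51 and 5.93 in SNI (1.34 ± 0.10, adjusted p = 1.08e-06). With G15 it reached 7.20, 8.63 and 9.83 FPKM, above SNI by 0.58 ± 0.11 (adjusted p = 0.012). Cdca3, a trigger of mitotic entry, rose by 1.69 ± 0.23 after SNI (adjusted p = 0.000176) and Cdc25c, the phosphatase that activates CDK1, by 0.49 ± 0.07 (adjusted p = 0.000397). Ckap5, a microtubule polymerase that neurons also use, was the 1 lower (-0.17 ± 0.04, adjusted p = 0.0117).

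Many brakes of the cycle were higher after SNI. Of 14 inhibitors and brakes measured, 10 were higher (71.4%, against 17.1% of all genes) and 1 lower. The 10 include Mdm2, which acts against p53 and is not itself a brake. Of 17 other G1 genes, namely cyclins, kinases, pocket proteins, E2F factors and Myc, 8 were higher (47.1%) and 1 lower. Myc was among those 8. Gadd45a, a stress gene that blocks the G2 to M step, went from 17.06, 19.06 and 17.62 FPKM to 107.0, 100.2 and 103.7 FPKM (2.50 ± 0.06, adjusted p = 7.68e-11). Gadd45g changed by 2.13 ± 0.07 (adjusted p = 1.45e-09). Cdkn1a, the CDK inhibitor p21, stood at 6.28, 4.93 and 5.74 FPKM in sham, at 22.26, 23.24 and 21.37 in SNI and at 29.59, 31.45 and 30.26 in SNI + G15. Its 3 groups were apart from each other, by 1.97 ± 0.08 after SNI (adjusted p = 8.08e-09) and by a further 0.46 ± 0.06 with G15 (adjusted p = 0.00105). Cdkn1c, the CDK inhibitor p57, went down after SNI and up with G15. It had 4.48, 4.27 and 4.90 FPKM in sham, 2.85, 2.62 and 2.50 in SNI and 4.16, 3.73 and 4.70 in SNI + G15 (-0.81 ± 0.10, adjusted p = 8.79e-05, and 0.66 ± 0.12, adjusted p = 0.00896). Gadd45b was the third brake higher with G15 (0.26 ± 0.07, adjusted p = 0.0402), and E2f6, a repressor, the other gene lower after SNI (-0.14 ± 0.05, adjusted p = 0.0451).

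Markers of several cell types also differed between the groups, some upward and some downward. Of all genes tested, 17.1% were called higher and 16.4% lower after SNI, and 5.02% and 4.42% with G15 against SNI. In SNI + G15 against sham these shares were 15.9% and 16.0%. Of 15 macrophage markers 13 were higher after SNI and 15 in SNI + G15 against sham, and their FPKM summed to 194 to 214 for sham, 428 to 442 for SNI and 454 to 489 for SNI + G15. Defining markers such as Csf1r (12.79 to 13.16 FPKM in sham, 23.73 to 25.40 in SNI) were above 0 in all libraries. Of 8 erythroid markers, genes of red cell precursors, 7 were higher after SNI and 5 lower with G15 against SNI, with summed FPKM of 6.77 to 7.20, 22.2 to 24.6 and 9.99 to 12.7. Against sham, 5 erythroid markers were still higher in SNI + G15. The T cell sum was 1.77 to 2.66, 4.0 to 4.92 and 1.68 to 2.11 FPKM, in the range of sham with G15 except for 1 library below it.

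In SNI + G15 the mitosis sum was 60.8 to 63.9 FPKM, above SNI in every library, and the S phase sum was 61.0 to 64.0 FPKM. Much of the S phase sum is Pcna, which was not called with G15 against SNI. Pcna had means of 22.7 FPKM in SNI and 26.0 in SNI + G15, where the S phase sum had means of 59.1 and 62.8. All 6 fibroblast markers were called higher in SNI + G15 than in SNI, where 5.02% of all genes were. Their summed FPKM was 467 to 477 for sham, 450 to 452 for SNI and 606 to 630 for SNI + G15. After SNI 2 of them were lower than in sham. Satellite glia markers summed to 201 to 206, 229 to 242 and 268 to 287 FPKM, of 4 markers 2 being called higher after SNI and, with G15, 1 higher and 1 lower. Of 4 Schwann cell markers 1 was higher and 1 lower after SNI. Lists of 4 or 5 markers are too short to set against the 17.1% and 16.4% of all genes called after SNI. Of 5 neuronal markers 2 were higher and 2 lower, with sums of 8867 to 9191, 9017 to 9246 and 9263 to 9802 FPKM. In TMM-scaled CPM, which is not scaled to transcript length, the neuronal sums were 18288 to 19012, 16286 to 16833 and 16464 to 17812. By that unit every injured library lay below sham, so the direction of the neuronal sum depended on the unit. For 7 neutrophil lineage markers the sums were 139 to 167, 216 to 253 and 229 to 274 FPKM, with 4 called higher after SNI. Endothelial sums were 46.9 to 51.5, 46.6 to 48.2 and 59.3 to 66.8 FPKM. Of the 5 endothelial markers, only Cldn5 was called higher with G15 against SNI, and Kdr was called lower. Much of the step in the sum is Cldn5, at 23.62 to 25.29 FPKM in SNI and 35.20 to 42.33 in SNI + G15. Sums of 4 B cell markers were 1.60 to 1.78, 0.98 to 1.5 and 0.94 to 1.48 FPKM. The part of any of these cell types in the change of the members was not tested.

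**Figure D5:**
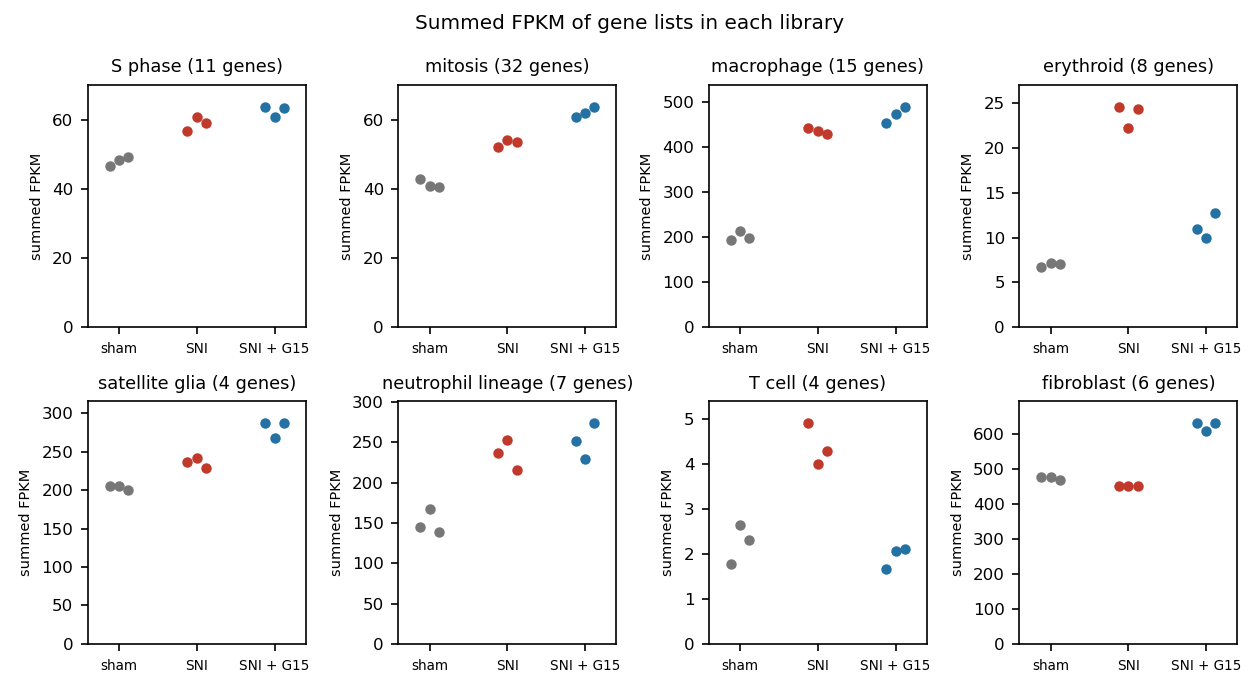
FPKM summed over each list in each of the 9 libraries, with every axis starting at 0. The S phase and mitosis sums step up from sham to SNI and again to SNI + G15 (mitosis 40.7 to 42.9, 52.3 to 54.4 and 60.8 to 63.9). Most of the second S phase step (means of 59.1 and 62.8) lies in Pcna (22.7 and 26.0), which was not called there. The macrophage sum steps up from sham to SNI and by less to SNI + G15. The erythroid and T cell sums are highest in SNI, the erythroid sum staying above sham in SNI + G15.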

How the data were processed

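RNA from 9 libraries (3 sham, 3 SNI, 3 SNI + G15) was sequenced as paired reads of 150 bp. The authors deposited estimated counts per gene, not normalized, and FPKM, normalized for depth and length and summed over transcripts. The columns headed as control were taken as sham, the group the other names leave. The submitters' processing notes list the builds GRCm38 and mm10, which are of mouse, although the gene IDs are of rat; the aligner is not given in the sources used here. The labels' extraction protocol names other cells and another kit than the methods. All 43 members matched the RefSeq table of GRCr8 by gene ID and symbol; promoters came from that table.

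After rounding, counts entered the quasi-likelihood test of edgeR 4.0.16 with TMM scaling (R 4.3.3), only the 2 groups compared in each fit, over all genes with at least 1 count. The methods' FPKM filter was an alternative because it admits members through the group where they are high. Further alternatives used DESeq2 1.42.0, limma 3.58.1 on log2 FPKM with a pseudocount of 1 or 0.1, RLE scaling, a minimum of 10 counts, a single fit of all 9 libraries, the replicate number as a block, and each library left out. Fold change and adjusted p are printed for called members, at most the 12 with the smallest p, and always for Mki67, Top2a, Cdk1, Ccnb1, Pcna and Mcm2; other values printed with a test were chosen after they were seen. The 3 called genes with the smallest p per direction are named from other lists, a few of them not reported here. The members and lists were chosen with earlier results of these data known. Fractional counts occurred in 9 members, so reads shared with related sequences are uncertain there. These members were Tyms, Ccna2, Ccnb1, Ccnb2, Aurka, Foxm1, Kif20a, Racgap1 and Mki67. Deposited TPM, comparisons and group averages were not used.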

Additional observations from a re-analysis of the deposited data

How the results depend on the processing

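Of the values of the genes named by rule under the alternatives, 533 kept their direction and side of the threshold, 35 kept the direction but lost the call, 1 gained it and none reversed. Over all 43 members, calls lost in at least 1 alternative were Ccna2, Kif2c, Mcm7, Melk, Nuf2, Pcna and Ttk after SNI, Birc5, Kif23 and Mcm5 with G15 against SNI, and Bub1, Kif2c, Mcm4, Ndc80 and Ttk in SNI + G15 against sham. Calls gained were Aurkb, Bub1, Mad2l1, Ndc80 and Plk1, Nusap1, and Ccnb1, Kif11 and Mad2l1, in the same order of comparisons. With the FPKM filter 6, 1 and 6 called members were not in the fit. After SNI the number of lower members was 1 instead of 2 with DESeq2, with both limma fits and with any library left out (1 to 1), Mcm7 being lost. The number of higher members ran from 18 to 20 with a library left out. In SNI + G15 against SNI, 1 member was higher and 0 lower with DESeq2, with both limma fits and with the replicate block; with a library left out these counts ran from 1 to 2 and from 0 to 1. Same-numbered libraries did not deviate together (9 correlations from -0.12 to 0.09), so no pairing by number was seen. Such correlations cannot exclude that same-numbered libraries were handled together. The block gave 21 higher members after SNI and 24 in SNI + G15 against sham. The median log2 fold change of S phase members after SNI was 0.31 with all 9 libraries in one fit, 0.27 and 0.37 with limma on log2 of FPKM plus 1 and plus 0.1, and 0.28 to 0.36 with a library left out. That of mitosis members was 0.56 with the FPKM filter, 0.58 with all 9 libraries, 0.24 and 0.65 with the limma fits, and 0.57 to 0.66 with a library left out. In SNI + G15 it was 0.10 against SNI with limma on log2 of FPKM plus 1 (0.20 to 0.27 with a library left out), and 0.41 and 0.93 against sham with the limma fits (0.83 to 0.93). Against sham the S phase median was 0.30 to 0.43 with a library left out, and the S phase sum gave a ratio of 1.27 in TMM-scaled CPM. A pseudocount of 1 exceeds the mean FPKM of 23 of 43 members in sham, which shrinks their fold changes. Depth limits members with under about 20 counts per library, such as Bub1b, Cenpf, Kif2c and Ccnb2.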
